A study of Mus musculus with 17 samples.

Results

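The genes described here encode the coats, tethers and scaffolds that sort proteins and membranes in endosomes: the adaptor protein complexes, the vacuolar protein sorting (Vps) proteins and the sorting nexins (Snx). They were followed in macrophages from the kidneys of lupus-prone mice. Membership went by gene symbol alone: Vps or Snx followed by a number, or Ap1 to Ap5 followed by a subunit letter and an optional digit, with a probe set on the array. The rule held 89 genes of the 15780 that carried 1 symbol, with 25 Ap, 34 Vps and 30 Snx genes. The rule itself reads no expression value. The set was, however, chosen with earlier results of these data known, so its share of called genes is not an independent test. RefSeq lists 93 genes of this pattern, and 4 of them (Ap1s3, Ap2m1, Ap3s1 and Vps13c) were not analysed here. Ap1ar, which encodes an AP-1 accessory regulator, has more letters behind the pattern, lies outside the rule and was not called in any comparison.

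All mice were NZB/W, a hybrid strain that develops lupus nephritis spontaneously. Cells staining brightly for the macrophage surface protein F4/80 (F4/80hi) were sorted from the kidney by flow cytometry, and the RNA of each sample was measured on its own Affymetrix array. The remission group (4 arrays) was sampled 3 to 4 weeks after complete remission, which had been induced with 1 dose of cyclophosphamide (a cytotoxic drug), 6 doses of CTLA4Ig (a fusion protein that blocks T cell costimulation) and anti-CD154 (an antibody to CD40 ligand). The nephritic group (7 arrays) was sampled 2 to 6 weeks after proteinuria began and ahead of terminal renal failure. The prenephritic group (6 arrays) came from mice 8 to 16 weeks old, and the labels give no age for the other groups. Age and disease therefore cannot be told apart in the nephritic against prenephritic comparison, nor drug treatment and remission in the comparisons of the remission group. The labels do not say whether each sample is a separate animal or a pool, so the p-values measure the spread between these samples. In bulk RNA from sorted cells, fewer cells of a type and less RNA per cell cannot be told apart.

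Adaptor complexes are heterotetramers that recognise sorting signals in the tails of membrane proteins: AP-1 works between the trans-Golgi network and endosomes, AP-2 in clathrin-mediated uptake at the cell surface, AP-3 on the route to lysosomes and related organelles, and AP-4 and AP-5 in other Golgi and endosomal steps. Retromer and retriever return receptors from endosomes before they are degraded, while the ESCRT complexes take ubiquitinated receptors into the vesicles of multivesicular bodies. HOPS and CORVET tether endosomes to each other and to lysosomes, and GARP and EARP receive vesicles at the Golgi and at recycling endosomes. Sorting nexins bind endosomal phosphoinositides through a PX domain, and those with a BAR domain bend the membrane into tubules. In macrophages this machinery serves the uptake, degradation and recycling of material taken in by phagocytosis and endocytosis.

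The values are log2 expression values that the authors made by RMA, so a difference of 1 is a doubling and values of different genes are not set against each other. Differences were tested with limma in 1 model of the 3 groups, and a gene was called where its p, adjusted by the Benjamini-Hochberg method over all 15780 genes, was below 0.05. Differences are given on this log2 scale as value ± SE, first group minus second. Macrophage identity was plain on every array: the mean level of 11 macrophage markers ran from 12.32 to 12.61 in remission arrays, from 12.46 to 12.72 in nephritic arrays and from 12.26 to 12.59 in prenephritic arrays, and Adgre1, which encodes F4/80, averaged 13.23 in remission, 13.24 in nephritic and 13.08 in prenephritic arrays. Of the 11, Mertk and Fcgr1 rose in nephritic against prenephritic arrays (1.22 ± 0.21 and 0.63 ± 0.14) and fell in remission against nephritic arrays (-1.26 ± 0.24 and -0.55 ± 0.16). Kidney tubule transcripts were also present and uneven. The mean level of 21 proximal tubule markers ran from 10.04 to 11.57 in remission, 7.79 to 10.96 in nephritic and 9.07 to 10.99 in prenephritic arrays, and that of 19 distal tubule markers from 9.17 to 10.67 in remission, 7.22 to 9.90 in nephritic and 8.11 to 9.85 in prenephritic arrays. A tubule score, the mean over these 40 genes of each array's deviation from the gene's mean over all arrays, was 1.08, 1.44, 0.69 and -0.07 in the remission arrays. It ran from -2.18 to 0.64 in nephritic and from -1.09 to 0.75 in prenephritic arrays. Of 8 measured monocyte markers, 5 rose in nephritic against prenephritic arrays and 5 fell in remission against nephritic arrays, among them Itgam (2.09 ± 0.17 and -1.60 ± 0.19). Of 9 measured T and NK cell markers, 3 rose and 1 fell in nephritic against prenephritic arrays, and 5 fell in remission against nephritic arrays. Of 8 B and plasma cell markers 4 rose and 1 fell in nephritic against prenephritic arrays, and 1 rose and 2 fell in remission against nephritic arrays. For 7 dendritic cell markers these counts were 1 and 3, then 1 and 2, with Xcr1 higher (2.37 ± 0.43) and Siglech lower (-2.73 ± 0.25) in nephritic than prenephritic arrays. For 11 fibroblast and mesangial markers they were 3 and 1, then 1 and 2. Of 10 endothelial markers only Pecam1 was called in nephritic against prenephritic arrays, where it rose by 1.84 ± 0.20. In remission against nephritic arrays Pecam1 fell (-2.05 ± 0.22) and Ehd3 rose. There 9 of the 10 differences were positive, with a median of 0.49, and that of Pecam1 was the only negative one. The part of these cells' transcripts in the results was not tested.

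Of the 89 endosomal sorting genes, 22 fell in remission against nephritic arrays (24.7%, against 10.0% of all genes tested), and 5 did so with the tubule score as a covariate (5.62%, against 5.56% of all genes). Without it 1 gene, Ap1m2, rose (1.12%, against 3.27% of all genes). The sign of the difference, which is no test, was negative for 77 of the 89 (55.8% of all genes), with a median of -0.17 against -0.03 over all genes. Every remission array lay below every nephritic array for 14 of them (15.7%), against 6.95% of all genes. The fallen genes were 8 adaptor subunits, 6 Vps genes and 8 sorting nexins, and none belonged to AP-4, AP-5, GARP, EARP, the VPS13 proteins, the nexins with a FERM-like domain (Snx17, Snx27 and Snx31) or those with a PXA domain (Snx13, Snx14, Snx19 and Snx25). By sign alone, all 4 AP-4, 4 AP-5, 3 VPS13 and 3 FERM-like differences were negative. So were 4 of 5 for GARP and EARP and 2 of 4 for the PXA nexins. The differences of the fallen genes were all small, and Ap1s2 was the only fallen member to pass a minimum of 1.5-fold.

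The count of fallen members changed when the tubule score entered the model and when single remission arrays were left out. Ap1g1, Ap1s2, Snx1, Snx10 and Vps36 were the 5 that fell once the score was included. Leaving out the 3 arrays with the most extreme scores (remission 1 and 2 and nephritic 3), 2 members fell (2.25%, against 1.48% of all genes), Ap1s2 and Snx10. The medians over the 89 genes were then -0.10 and -0.09, against 0.02 and 0.01 over all genes, and all 23 called members kept their direction in both fits. Without remission 1 the count was 13 (against 5.87% of all genes), without remission 2 it was 7 (against 5.32%), without remission 3 it was 14 (against 7.36%) and without remission 4 it was 30 (against 12.3%). The 4 remission arrays themselves differed. The mean deviation of the 89 genes from their means over all arrays was -0.16, -0.19, -0.07 and 0.00 in remission arrays 1 to 4, while it ran from -0.03 to 0.14 in nephritic and from -0.04 to 0.07 in prenephritic arrays. Remission 4 stood inside the range of both other groups.

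**Figure D1:**
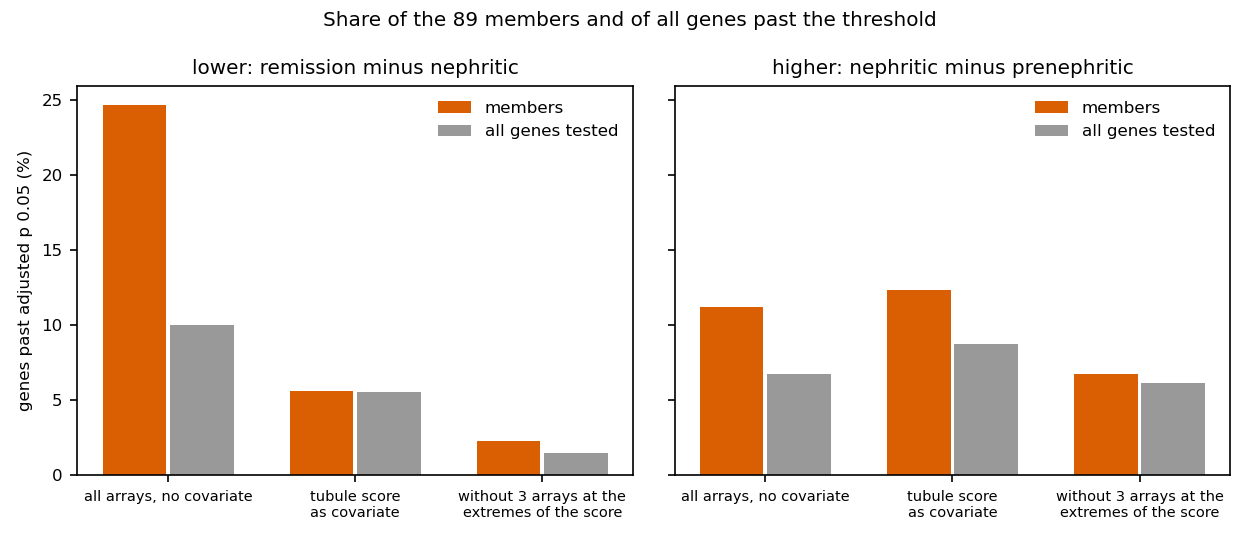
Share of the 89 endosomal sorting genes and of all 15780 genes past adjusted p 0.05, in percent, for genes lower in remission than nephritic arrays (left) and higher in nephritic than prenephritic arrays (right), each in 3 fits. On the left the members' bar stands at 24.7% against 10.0% with all arrays, and at 5.62% against 5.56% with the tubule score as a covariate.

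Between nephritic and prenephritic arrays 10 members rose (11.2%, against 6.74% of all genes) and 1, Snx18, fell (1.12%, against 5.32%). The 11 called members made 12.4% of the 89, against 12.1% of all genes, so the share called in either direction was near that of the whole array. The direction was less even than over the array: 62 of 89 differences were positive (45.7% of all genes), with a median of 0.09 against -0.02. At an unadjusted p below 0.05, 27 members were higher (30.3%, against 12.5% of all genes) and 6 lower (6.74%, against 12.8%). Every nephritic array lay above every prenephritic array for 4 members (4.49%), against 3.07% of all genes. All 11 calls were also made with the tubule score as a covariate. In that fit 11 members rose (12.4%, against 8.76% of all genes) and 3 fell (3.37%, against 9.43%). Vps28, an ESCRT-I subunit, was then higher as well (0.18 ± 0.06, adjusted p = 0.047), and Vps37c and Ap4m1 were lower (-0.23 ± 0.07, adjusted p = 0.024, and -0.27 ± 0.08, adjusted p = 0.037). Leaving out the 3 arrays with the most extreme scores, 6 rose (6.74%, against 6.17%) and 1, Snx18, fell (1.12%, against 5.77%). The count of risen members was 6 without prenephritic 2 (against 5.82% of all genes) and 6 without prenephritic 4 (against 6.28%). It was 5 without prenephritic 5 (against 5.51%) and 6 without nephritic 4 (against 6.03%).

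**Figure D2:**
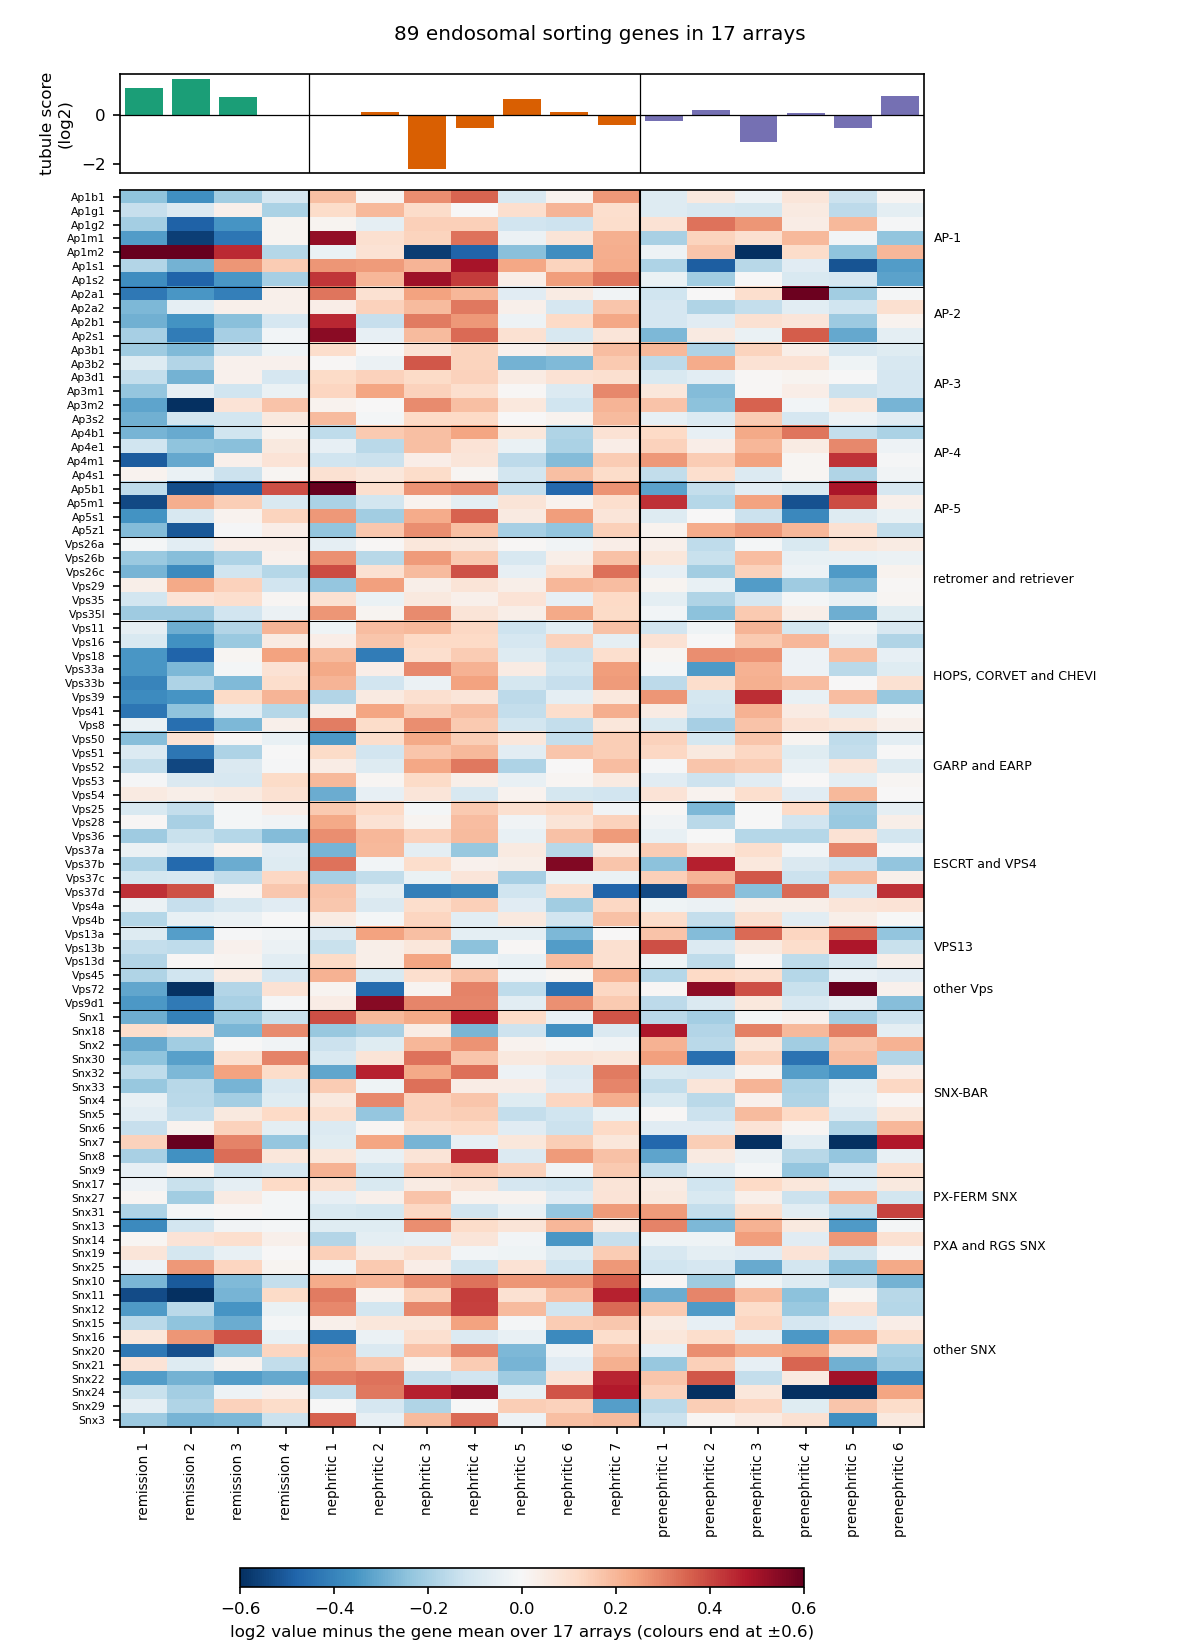
The 89 endosomal sorting genes (rows, grouped by complex or domain) in the 17 arrays (columns, remission, nephritic and prenephritic), as log2 value minus the gene's mean over all arrays, with the tubule score of each array as bars above. Most rows are blue in remission arrays 1 and 2, which have the highest tubule scores (1.08 and 1.44), and paler in remission 4 (-0.07).

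A set of 8 genes was called in both comparisons, higher in nephritic than prenephritic arrays and lower in remission than nephritic arrays: Ap1g1, Ap1s2, Vps26c, Vps36, Vps9d1, Snx1, Snx4 and Snx10. Both comparisons use the same nephritic arrays, so the overlap is not an independent repeat. The 250 bases upstream of the transcription start are shown for the 4 of these with the smallest p in the remission against nephritic comparison, so that the promoters of the genes with the clearest differences can be read beside their values (RefSeq, GRCm38.p6, on the gene's own strand, the most upstream start listed). Capitals mark a match to CACGTG, the E-box core read by the MiT/TFE family of lysosomal regulators, the only one of 4 searched motifs found in these windows. The windows lie at chr6:51523653-51523902 (Snx10, plus strand), chrX:163908767-163909016 (Ap1s2, plus strand), chr9:66124887-66125136 (Snx1, minus strand) and chr8:22192583-22192832 (Vps36, plus strand).
Snx10: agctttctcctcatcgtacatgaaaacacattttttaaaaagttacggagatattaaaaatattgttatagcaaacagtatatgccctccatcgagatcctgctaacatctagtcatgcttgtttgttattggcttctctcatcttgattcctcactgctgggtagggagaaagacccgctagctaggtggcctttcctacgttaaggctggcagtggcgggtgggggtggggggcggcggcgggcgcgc
Ap1s2: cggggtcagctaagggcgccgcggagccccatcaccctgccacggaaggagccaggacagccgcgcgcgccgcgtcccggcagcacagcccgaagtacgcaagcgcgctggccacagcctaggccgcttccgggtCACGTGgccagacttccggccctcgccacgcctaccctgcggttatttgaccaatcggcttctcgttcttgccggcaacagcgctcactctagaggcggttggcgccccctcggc
Snx1: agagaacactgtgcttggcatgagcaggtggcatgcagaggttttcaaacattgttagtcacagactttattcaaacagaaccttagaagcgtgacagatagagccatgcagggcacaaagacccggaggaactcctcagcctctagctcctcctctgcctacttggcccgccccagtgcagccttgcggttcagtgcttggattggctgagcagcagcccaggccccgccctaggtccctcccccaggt
Vps36: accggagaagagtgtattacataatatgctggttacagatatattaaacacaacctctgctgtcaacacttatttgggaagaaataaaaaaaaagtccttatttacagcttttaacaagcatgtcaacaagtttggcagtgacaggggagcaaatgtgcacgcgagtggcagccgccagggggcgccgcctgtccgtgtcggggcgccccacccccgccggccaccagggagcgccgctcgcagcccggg
The Ap1s2 match starts 115 bases before the start. On either strand, CACGTG was present in the 250 upstream bases of 6.86% of 27025 genes and of 8 of the 66 members with a promoter entry (12.1%). Among the 20 called members with an entry it was present in 2, Ap1s2 and Snx18. The other motifs were TGANTCA, the site of Fos and Jun factors (7.82% of genes and 6 of 66 members), GAGGAAGT, a PU.1 site (2.79% and 0 of 66), and the interferon-stimulated response element (3.46% and 3 of 66). Of the called members TGANTCA was found at Snx10, in a window of another of its 3 listed starts, and the interferon element at Snx10 and Vps41. The Ap1s2 window was 70% GC and the Snx10 window 48.4%, beside medians of 62% over the members' starts and 52.4% over all listed starts, and the motif shares were not adjusted for GC.

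The AP-1 complex had the most called subunits. Of 7 measured, 3 rose in nephritic against prenephritic arrays (42.9%, against 6.74% of all genes). In remission against nephritic arrays 4 fell (57.1%, against 10.0%) and 1 rose (14.3%, against 3.27%). Ap1s2, which encodes the small subunit sigma-1B, stood at 10.04, 9.93, 10.06 and 10.21 in the remission arrays, 10.45, 10.73 and 10.92 in the nephritic arrays (lowest, median and highest of 7), and 10.09, 10.32 and 10.41 in the prenephritic arrays (lowest, median and highest of 6). Every remission array was below every nephritic array, every nephritic array was above every prenephritic array, and the remission and prenephritic arrays overlapped. It rose by 0.44 ± 0.08 in nephritic against prenephritic arrays (adjusted p = 0.0016), or 1.35-fold, and fell in remission against nephritic arrays (-0.66 ± 0.09, adjusted p = 2.3e-04), or 1.58-fold. Ap1s1, which encodes the alternative small subunit sigma-1A, was called against prenephritic but not against remission arrays. Its values were 9.03, 8.92, 9.47 and 9.36 in the remission arrays, 9.34, 9.44 and 9.70 in the nephritic arrays, and 8.69, 8.94 and 9.14 in the prenephritic arrays. All nephritic arrays were above all prenephritic arrays (0.56 ± 0.10, adjusted p = 0.0014, 1.47-fold), while the remission arrays overlapped the nephritic ones and did not pass the test against them (-0.27 ± 0.11, adjusted p = 0.11).

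Ap1g1, the large gamma-1 subunit, was at 9.44, 9.49, 9.61 and 9.39 in the remission arrays, 9.58, 9.69 and 9.78 in the nephritic arrays, and 9.42, 9.49 and 9.63 in the prenephritic arrays. Its groups overlapped, with differences of 0.19 ± 0.05 in nephritic against prenephritic arrays (adjusted p = 0.021) and -0.22 ± 0.06 in remission against nephritic arrays (adjusted p = 0.021). The difference of the remission arrays was not called without remission 1 (adjusted p = 0.079), remission 2 (0.06) or remission 4 (0.054), and that of the nephritic arrays was not called without prenephritic 5 (0.052). Ap1g2, the gamma-2 subunit, was at 9.52, 9.24, 9.37 and 9.74 in the remission arrays, 9.60, 9.74 and 9.87 in the nephritic arrays, and 9.72, 9.86 and 10.05 in the prenephritic arrays. It was not called against nephritic arrays (-0.27 ± 0.09, adjusted p = 0.062).

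Ap1b1, the beta-1 subunit, had values of 10.68, 10.55, 10.71 and 10.82 in the remission arrays, 10.83, 11.10 and 11.27 in the nephritic arrays, and 10.79, 10.91 and 10.99 in the prenephritic arrays. The remission arrays were all lower than the nephritic ones (-0.37 ± 0.08, adjusted p = 0.0083), and the nephritic and prenephritic arrays overlapped. Ap1m1, the ubiquitous medium subunit mu-1A, was at 8.99, 8.76, 8.89 and 9.34 in the remission arrays, 9.29, 9.46 and 9.85 in the nephritic arrays, and 9.09, 9.36 and 9.52 in the prenephritic arrays. It fell in remission against nephritic arrays (-0.52 ± 0.12, adjusted p = 0.0091), with remission 4 inside the nephritic range, and was not called without remission 2 (adjusted p = 0.05).

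Ap1m2, the medium subunit mu-1B of epithelial cells, went the other way. It was at 6.38, 6.74, 6.14 and 5.52 in the remission arrays, 5.12, 5.44 and 5.91 in the nephritic arrays, and 4.89, 5.73 and 5.89 in the prenephritic arrays. The remission and nephritic arrays overlapped, and the difference was 0.71 ± 0.22 (adjusted p = 0.046, 1.63-fold). Among the remission arrays its order was that of the tubule score, highest in remission 2 and lowest in remission 4, and the prenephritic arrays also followed the score. The nephritic arrays did not: nephritic 7 was highest (5.91) at a score of -0.41, and nephritic 5, with the highest score (0.64), was at 5.44. The part of tubule transcripts in this difference was not tested. With the score as a covariate the difference was 0.32 ± 0.19 (adjusted p = 0.35). It was called in 5 of the 17 fits with 1 array left out, those without remission 4, nephritic 2 or 7, or prenephritic 3 or 6 (adjusted p up to 0.2 in the other fits).

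**Figure D3:**
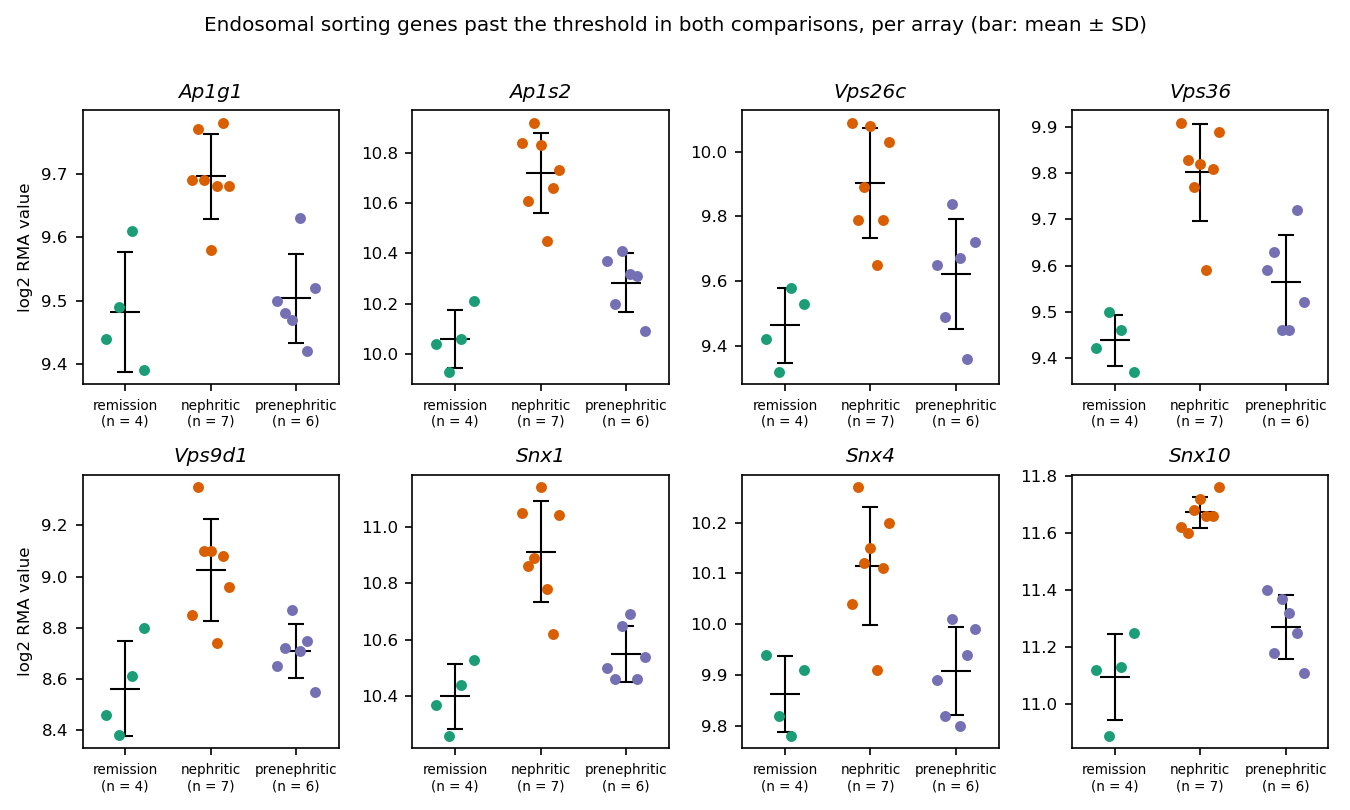
Log2 RMA values of the 8 genes called in both comparisons, 1 point per array, with the mean ± SD of the remission, nephritic and prenephritic groups. For Snx10 the nephritic arrays (11.60 to 11.76) lie above all remission arrays (up to 11.25) and all prenephritic arrays (up to 11.40), while the remission and prenephritic arrays overlap for all 8 genes.

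For AP-2, the endocytic adaptor, 2 of 4 measured subunits fell in remission against nephritic arrays (50%, against 10.0% of all genes). None was called between nephritic and prenephritic arrays. Ap2b1, the beta-2 subunit, was at 9.59, 9.52, 9.63 and 9.78 in the remission arrays, 9.74, 10.11 and 10.33 in the nephritic arrays, and 9.66, 9.85 and 9.97 in the prenephritic arrays. Its difference was -0.42 ± 0.10 (adjusted p = 0.012), with overlap of remission 4 and the lowest nephritic array, and was not called without remission 2 (adjusted p = 0.055). Ap2a1, an alpha subunit, was at 7.95, 8.03, 7.97 and 8.41 in the remission arrays, 8.31, 8.47 and 8.70 in the nephritic arrays, and 8.17, 8.37 and 8.97 in the prenephritic arrays. Its difference was -0.41 ± 0.13 (adjusted p = 0.049) and was called in 4 of the 17 fits with 1 array left out, those without remission 4, nephritic 5, or prenephritic 4 or 5 (adjusted p up to 0.16 in the other fits). Ap2s1, the sigma-2 subunit, was not called (-0.36 ± 0.13, adjusted p = 0.078), nor was Ap2a2 (-0.18 ± 0.08, adjusted p = 0.17).

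AP-3 also had 2 fallen subunits, of 6 measured (33.3%, against 10.0% of all genes). Ap3d1, the delta subunit, which is mutated in mocha mice, was at 11.49, 11.35, 11.66 and 11.53 in the remission arrays, 11.68, 11.75 and 11.77 in the nephritic arrays, and 11.53, 11.60 and 11.65 in the prenephritic arrays. All remission arrays were lower than all nephritic ones (-0.23 ± 0.06, adjusted p = 0.013), and without remission 2 the adjusted p was 0.069. Ap3b1, the beta-3A subunit, which is mutated in pearl mice, was at 9.99, 9.94, 10.09 and 10.18 in the remission arrays, 10.20, 10.29 and 10.39 in the nephritic arrays, and 10.02, 10.19 and 10.40 in the prenephritic arrays. All its remission arrays were lower too (-0.24 ± 0.07, adjusted p = 0.041), and the gene was not called without remission 1, 2 or 3, or nephritic 1, 3, 4, 6 or 7 (adjusted p up to 0.16). Without the covariate no subunit of AP-4 or AP-5 was called in any comparison. The smallest p in AP-4 was that of Ap4m1 in remission against prenephritic arrays (-0.35 ± 0.12, adjusted p = 0.2), with levels of 8.61, 8.80, 9.14 and 9.19 in the remission arrays, 8.85, 8.99 and 9.26 in the nephritic arrays, and 9.10, 9.30 and 9.54 in the prenephritic arrays. In AP-5 it was that of Ap5s1 in nephritic against prenephritic arrays (0.26 ± 0.10, adjusted p = 0.095), which was at 7.40, 7.66, 7.78 and 7.89 in the remission arrays, 7.55, 7.98 and 8.11 in the nephritic arrays, and 7.37, 7.68 and 7.76 in the prenephritic arrays. Both genes overlapped between all groups.

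Of the retrieval complexes, the calls fell on retriever rather than on the retromer core, a split whose own difference was not tested. Vps26c, a retriever subunit, was at 9.42, 9.32, 9.58 and 9.53 in the remission arrays, 9.65, 9.89 and 10.09 in the nephritic arrays, and 9.36, 9.66 and 9.84 in the prenephritic arrays. All remission arrays were below all nephritic arrays (-0.44 ± 0.10, adjusted p = 0.0085). The nephritic and prenephritic arrays overlapped (0.28 ± 0.09, adjusted p = 0.049), and that difference was called in 3 of the 17 fits with 1 array left out, those without nephritic 2 or 5, or prenephritic 3 (adjusted p up to 0.12 in the other fits). Vps35l, the large retriever subunit, was at 7.64, 7.64, 7.74 and 7.82 in the remission arrays, 7.87, 7.97 and 8.14 in the nephritic arrays, and 7.56, 7.81 and 8.01 in the prenephritic arrays. Its remission arrays were all lower than the nephritic ones (-0.29 ± 0.09, adjusted p = 0.033), and the gene was not called without remission 1, 2 or 3, or nephritic 1, 3 or 6 (adjusted p up to 0.12).

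The retromer subunits Vps35 and Vps26a differed between remission and nephritic arrays by -0.02 ± 0.06 and -0.02 ± 0.05, with 95% intervals of -0.15 to 0.10 and -0.13 to 0.09. Vps26b, the alternative retromer arrestin-like subunit, was not called (-0.25 ± 0.09, adjusted p = 0.079). Vps29, which both complexes share, differed by -0.01 ± 0.10 between remission and nephritic arrays and by 0.22 ± 0.09 between nephritic and prenephritic arrays (adjusted p = 0.12).

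Among the 8 subunits of the HOPS, CORVET and CHEVI tethers, all 8 differences between remission and nephritic arrays were negative (55.8% of all genes). Of these, 1 was called (12.5%, against 10.0% of all genes). Vps41, a HOPS subunit that also binds AP-3, was at 9.11, 9.30, 9.48 and 9.37 in the remission arrays, 9.40, 9.69 and 9.78 in the nephritic arrays, and 9.43, 9.57 and 9.75 in the prenephritic arrays. It fell by 0.34 on the log2 scale (SE 0.08, adjusted p = 0.015), with remission 3 inside the nephritic range, and was not called without remission 1 (adjusted p = 0.076) or remission 2 (0.051). Of the GARP and EARP tethers none of 5 was called, and Vps51, which both share, had the smallest p (-0.27 ± 0.09 in remission against nephritic arrays, adjusted p = 0.054), at 8.27, 7.92, 8.17 and 8.35 in the remission arrays, 8.24, 8.50 and 8.55 in the nephritic arrays, and 8.21, 8.38 and 8.48 in the prenephritic arrays. Of 3 VPS13 lipid transfer proteins none was called, and the smallest p was that of Vps13d in nephritic against prenephritic arrays (0.15 ± 0.06, adjusted p = 0.11), which was at 9.02, 9.20, 9.21 and 9.13 in the remission arrays, 9.15, 9.29 and 9.43 in the nephritic arrays, and 9.04, 9.13 and 9.23 in the prenephritic arrays. The groups overlapped for both genes.

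In the ESCRT machinery 1 of 9 members rose in nephritic against prenephritic arrays (11.1%, against 6.74% of all genes). In remission against nephritic arrays 2 fell (22.2%, against 10.0%), and 6 of the 9 differences were negative (55.8% of all genes). Vps36, the ESCRT-II subunit that binds ubiquitin, was at 9.42, 9.50, 9.46 and 9.37 in the remission arrays, 9.59, 9.82 and 9.91 in the nephritic arrays, and 9.46, 9.56 and 9.72 in the prenephritic arrays. None of the remission arrays reached the nephritic range (-0.37 ± 0.07, adjusted p = 0.0024). The nephritic and prenephritic arrays overlapped (0.24 ± 0.06, adjusted p = 0.016), and both differences passed in all 17 fits with 1 array left out. Without the 3 arrays of most extreme tubule score the remission difference was -0.39 ± 0.10 (adjusted p = 0.063). Vps37b, an ESCRT-I subunit, was at 8.25, 7.97, 8.14 and 8.36 in the remission arrays, 8.42, 8.54 and 8.99 in the nephritic arrays, and 8.19, 8.33 and 8.90 in the prenephritic arrays. The remission arrays all lay below the nephritic ones (-0.43 ± 0.13, adjusted p = 0.045), and the gene was called in 6 of the 17 fits with 1 array left out, those without remission 4, nephritic 2 or 5, or prenephritic 1, 2 or 6 (adjusted p up to 0.17 in the other fits). Its paralog Vps37d was not called and had a difference of the opposite sign (0.42 ± 0.18, adjusted p = 0.13).

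Of the remaining Vps genes, Vps9d1, which carries the VPS9 domain of Rab5 exchange factors, was at 8.46, 8.38, 8.61 and 8.80 in the remission arrays, 8.74, 9.08 and 9.35 in the nephritic arrays, and 8.55, 8.72 and 8.87 in the prenephritic arrays. It fell in remission against nephritic arrays (-0.46 ± 0.10, adjusted p = 0.0082), with remission 4 inside the nephritic range. In nephritic against prenephritic arrays it rose by 0.32 ± 0.09 (adjusted p = 0.035), and this difference was called in 8 of the 17 fits with 1 array left out, those without remission 1, 2, 3 or 4, nephritic 1, 5 or 7, or prenephritic 3 (adjusted p up to 0.07 in the other fits). Vps72 meets the symbol rule but encodes a subunit of chromatin remodelling complexes, and it was not called in any comparison.

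**Figure D4:**
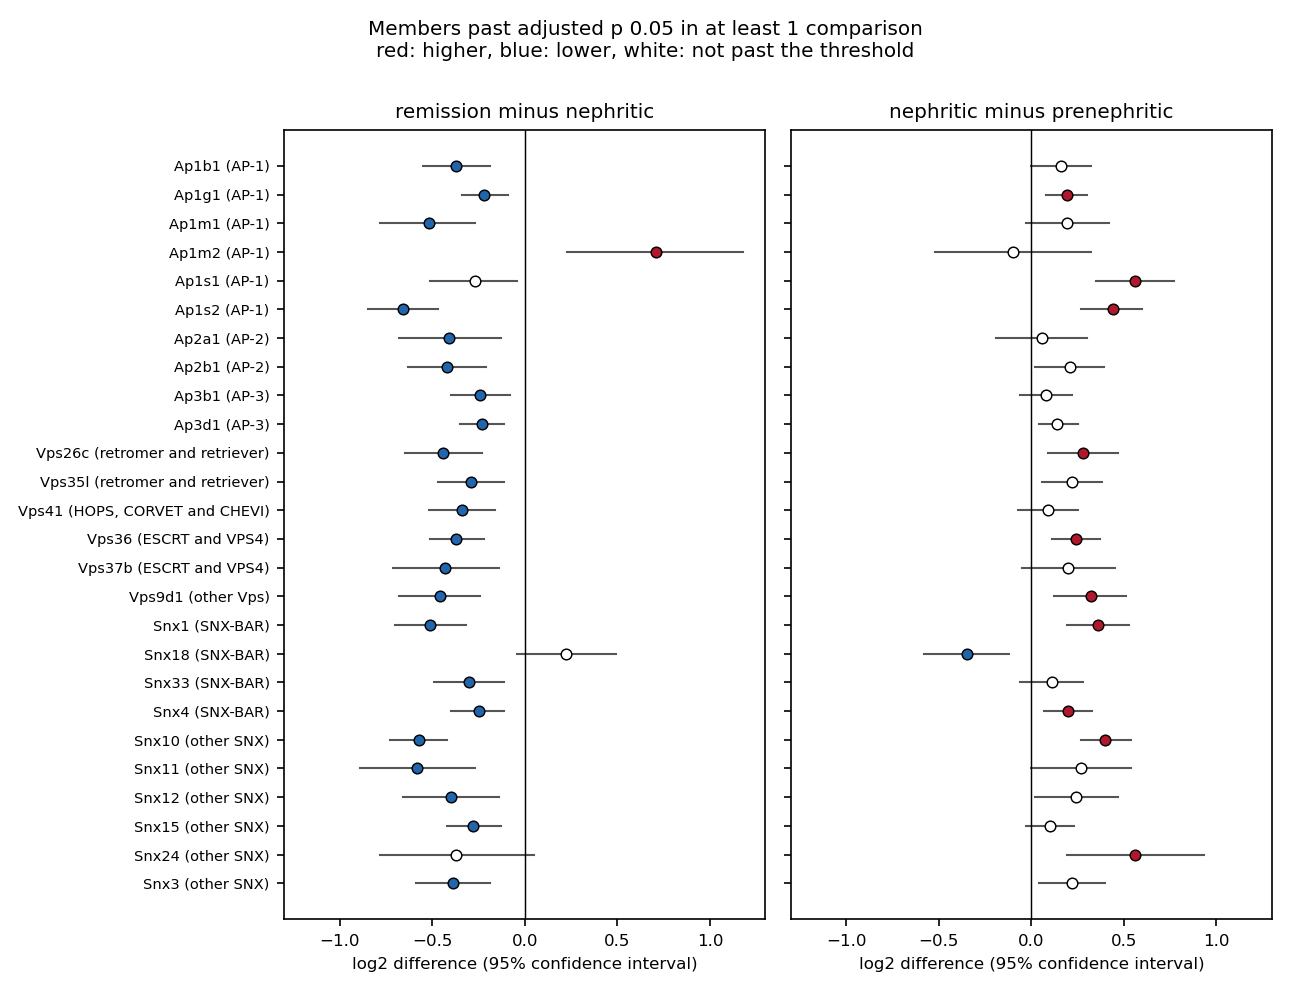
Log2 differences with 95% confidence intervals of the 26 members called in at least 1 comparison, for remission minus nephritic arrays (left) and nephritic minus prenephritic arrays (right), red where higher, blue where lower and white where not past adjusted p 0.05. The points lie mostly left of 0 in the left panel, with Ap1m2 at 0.71 on the other side, and mostly right of 0 in the right panel, with Snx18 at -0.35 on the other side.

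Snx10 had the smallest p of all 89 members in both comparisons. It encodes a PX-domain protein that osteoclasts need for bone resorption and that takes part in endosome and lysosome acidification. Its values were 11.12, 10.89, 11.13 and 11.25 in the remission arrays, 11.60, 11.66 and 11.76 in the nephritic arrays, and 11.11, 11.28 and 11.40 in the prenephritic arrays. Every nephritic array lay above every array of both other groups. The difference was 0.40 ± 0.06 in nephritic against prenephritic arrays (adjusted p = 5.9e-04, 1.32-fold) and -0.57 ± 0.07 in remission against nephritic arrays (adjusted p = 1.5e-04, 1.49-fold lower). Its close homolog Snx11 was at 6.77, 6.61, 7.03 and 7.42 in the remission arrays, 7.33, 7.49 and 7.77 in the nephritic arrays, and 7.01, 7.23 and 7.60 in the prenephritic arrays. Remission 4 lay inside the nephritic range, the difference was -0.58 ± 0.15 (adjusted p = 0.015), and it was not called without remission 1 (adjusted p = 0.066) or remission 2 (0.077).

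Snx3, which recruits retromer to endosomes, was at 11.08, 11.02, 11.03 and 11.17 in the remission arrays, 11.25, 11.49 and 11.66 in the nephritic arrays, and 10.93, 11.33 and 11.39 in the prenephritic arrays. The remission and nephritic ranges did not overlap (-0.39 ± 0.10, adjusted p = 0.013), and without remission 2 the adjusted p was 0.051. Its close homolog Snx12 was at 8.09, 8.27, 8.08 and 8.39 in the remission arrays, 8.31, 8.72 and 8.84 in the nephritic arrays, and 8.09, 8.39 and 8.59 in the prenephritic arrays. Remission 4 was inside the nephritic range (-0.40 ± 0.12, adjusted p = 0.038), and the gene was not called without remission 1, 2 or 3, or nephritic 1, 3, 4, 5 or 7 (adjusted p up to 0.13). Snx15 was at 8.53, 8.45, 8.39 and 8.68 in the remission arrays, 8.68, 8.76 and 8.93 in the nephritic arrays, and 8.59, 8.68 and 8.82 in the prenephritic arrays. Remission 4 lay below the lowest nephritic array by less than the rounding of these values, and the difference was -0.28 ± 0.07 (adjusted p = 0.013), not called without remission 2 (adjusted p = 0.055) or remission 3 (0.054).

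Of 12 sorting nexins with a BAR domain, 2 rose and 1 fell in nephritic against prenephritic arrays, and 3 fell in remission against nephritic arrays. Snx1, which forms endosomal tubules with Snx5 or Snx6, was at 10.37, 10.26, 10.44 and 10.53 in the remission arrays, 10.62, 10.89 and 11.14 in the nephritic arrays, and 10.46, 10.52 and 10.69 in the prenephritic arrays. Each remission array was below each nephritic array (-0.51 ± 0.09, adjusted p = 0.0016), and the nephritic and prenephritic arrays overlapped (0.36 ± 0.08, adjusted p = 0.0069). Both calls were made in all 17 fits with 1 array left out, and without the 3 arrays of most extreme tubule score the adjusted p of the remission difference was 0.1. Its partners were not called: the difference between remission and nephritic arrays was 0.01 ± 0.09 for Snx5, -0.02 ± 0.08 for Snx6 and -0.17 ± 0.10 for its paralog Snx2, with 95% intervals of -0.17 to 0.20, -0.19 to 0.15 and -0.38 to 0.04.

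Snx4, a nexin of recycling and autophagy, was at 9.94, 9.82, 9.78 and 9.91 in the remission arrays, 9.91, 10.12 and 10.27 in the nephritic arrays, and 9.80, 9.92 and 10.01 in the prenephritic arrays. Its groups overlapped (0.20 ± 0.06, adjusted p = 0.038 in nephritic against prenephritic arrays, and -0.25 ± 0.07, adjusted p = 0.023 in remission against nephritic arrays). The first was called in 8 of the 17 fits with 1 array left out, those without remission 1, 2, 3 or 4, nephritic 1 or 5, or prenephritic 3 or 6 (adjusted p up to 0.081 in the other fits). The second was not called without remission 2 (adjusted p = 0.082) or remission 3 (0.079). Snx33, an SH3-domain nexin of endocytosis, was at 6.72, 6.78, 6.67 and 6.85 in the remission arrays, 6.88, 6.99 and 7.28 in the nephritic arrays, and 6.76, 6.96 and 7.15 in the prenephritic arrays. Again no remission array reached the nephritic range (-0.30 ± 0.09, adjusted p = 0.037), and the gene was not called without remission 1, 2 or 3, or nephritic 1, 3 or 7 (adjusted p up to 0.11).

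Snx18, its SH3-domain relative, which also takes part in autophagosome formation, was the only member to fall in nephritic against prenephritic arrays. It was at 11.11, 11.08, 10.73 and 11.29 in the remission arrays, 10.64, 10.81 and 11.05 in the nephritic arrays, and 10.83, 11.25 and 11.49 in the prenephritic arrays. The groups overlapped, and the difference of -0.35 ± 0.11 (adjusted p = 0.046) was called in 5 of the 17 fits with 1 array left out, those without remission 3 or 4, nephritic 3, or prenephritic 2 or 6 (adjusted p up to 0.11 in the other fits). Snx9, the third of this subfamily, was not called (0.17 ± 0.07, adjusted p = 0.1). Snx24 was at 8.82, 8.75, 8.92 and 8.98 in the remission arrays, 8.81, 9.33 and 9.48 in the nephritic arrays, and 8.23, 8.66 and 9.19 in the prenephritic arrays. Its prenephritic arrays were widely spread, and the difference of 0.56 ± 0.17 in nephritic against prenephritic arrays (adjusted p = 0.046) was called in 5 of the 17 fits with 1 array left out, those without nephritic 1 or 5, or prenephritic 1, 3 or 6 (adjusted p up to 0.11 in the other fits).

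None of the 3 nexins with a FERM-like domain, which carry cargo back to the cell surface, was called. For Snx17 the differences were -0.02 ± 0.07 in remission against nephritic and -0.02 ± 0.06 in nephritic against prenephritic arrays, and for Snx27 they were -0.07 ± 0.07 and 0.03 ± 0.07. Snx31, at 4.18, 4.35, 4.37 and 4.35 in the remission arrays, 4.13, 4.27 and 4.62 in the nephritic arrays, and 4.22, 4.38 and 4.77 in the prenephritic arrays, had group means below the lower quartile of all values (4.99), as did Ap3b2, the neuronal AP-3 subunit. Of 4 nexins with a PXA domain none was called. Snx14 had the smallest p among them, with -0.18 ± 0.07 in nephritic against prenephritic arrays (adjusted p = 0.12). It was at 9.64, 9.71, 9.73 and 9.66 in the remission arrays, 9.28, 9.57 and 9.70 in the nephritic arrays, and 9.56, 9.66 and 9.89 in the prenephritic arrays. In all, 63 of the 89 genes were called in no comparison.

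Between remission and prenephritic arrays limma called 0 of the 89 members, where it called 1 of all 15780 genes (0.00634%). At an unadjusted p below 0.05, 2 members were higher and 19 lower, 23.6% of the members against 18.7% of all genes. The difference was negative for 65 of 89 (63.4% of all genes), with a median of -0.12 against -0.05. The smallest p was that of Ap1g2 (-0.41 ± 0.10, adjusted p = 0.13), which was called when arrays were weighted by their fit to the model (adjusted p = 0.032) and without prenephritic 6 (0.046). For the 4 genes whose promoters are shown, the differences were -0.17 (95% interval -0.33 to -0.02) for Snx10, -0.23 (-0.42 to -0.03) for Ap1s2, -0.15 (-0.35 to 0.05) for Snx1 and -0.13 (-0.28 to 0.02) for Vps36. Ap1s1 and Ap1m2 were the members with a positive difference at an unadjusted p below 0.05, with 0.28 (0.04 to 0.53) and 0.60 (0.12 to 1.09). The downward shift of the 89 genes was smaller in both tubule checks. Once the score entered the model, 52 differences were negative, and the median was -0.03 against -0.01 over all genes. When the 3 arrays of most extreme score were dropped, 55 were negative, and the median was -0.02 against -0.02.

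The partners of these genes, which the symbol rule does not take in, were read from 7 lists with 110 measured genes. In nephritic against prenephritic arrays 11 rose (10%, against 6.74% of all genes) and 4 fell (3.64%, against 5.32%), with a median of 0.06. In remission against nephritic arrays 16 fell (14.5%, against 10.0% of all genes) and 1 rose (0.909%, against 3.27%), with a median of -0.12. None was called between remission and prenephritic arrays. Of 22 ESCRT partners, 2 (Tsg101 and Chmp1b) rose in nephritic against prenephritic arrays (9.09%, against 6.74% of all genes). In remission against nephritic arrays 5 fell (22.7%, against 10.0%). Tsg101, the ESCRT-I subunit that binds ubiquitin and pairs with Vps28 and Vps37 proteins, differed by 0.31 ± 0.07 in nephritic against prenephritic arrays (adjusted p = 0.0086) and by -0.46 ± 0.08 in remission against nephritic arrays (adjusted p = 0.0015). Ist1, a filament protein of late ESCRT steps, fell in remission against nephritic arrays (-0.47 ± 0.09, adjusted p = 0.004).

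The next list held 17 genes of the WASH and CCC complexes, which work with retromer and retriever. In nephritic against prenephritic arrays 3 rose (17.6%, against 6.74% of all genes) and 1 fell (5.88%, against 5.32%). In remission against nephritic arrays 1 fell (5.88%, against 10.0%). Washc5, the strumpellin subunit of WASH, rose in nephritic against prenephritic arrays (0.45 ± 0.06, adjusted p = 1.6e-04) and fell in remission against nephritic arrays (-0.43 ± 0.07, adjusted p = 8.0e-04). Commd1 rose by 0.33 ± 0.07 (adjusted p = 0.0034) and Commd8 fell (-0.21 ± 0.07, adjusted p = 0.048) in nephritic against prenephritic arrays. Of 16 clathrin and monomeric adaptor genes, 1 rose in nephritic against prenephritic arrays (6.25%, against 6.74% of all genes). In remission against nephritic arrays 1 rose (6.25%, against 3.27%) and 3 fell (18.8%, against 10.0%). Epn2, an epsin of clathrin-coated pits, rose in remission against nephritic arrays (0.50 ± 0.14, adjusted p = 0.022). Gga2, which sorts mannose 6-phosphate receptors with AP-1, rose by 0.57 ± 0.08 in nephritic against prenephritic arrays (adjusted p = 2.1e-04) and was lower in remission against nephritic arrays (-0.31 ± 0.09, adjusted p = 0.033). Of 9 sorted receptors, 1 rose in nephritic against prenephritic arrays (11.1%, against 6.74% of all genes). In remission against nephritic arrays 2, Sort1 and Lrp1, fell (22.2%, against 10.0%). Sort1, a sortilin carried by retromer, was 0.61 ± 0.15 higher in nephritic than prenephritic arrays (adjusted p = 0.014) and differed by -0.71 ± 0.17 between remission and nephritic arrays (adjusted p = 0.011).

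Of 20 endosomal Rabs and tethers, 3 rose in nephritic against prenephritic arrays (15%, against 6.74% of all genes). In remission against nephritic arrays 4 fell (20%, against 10.0%). Rab32, which works with AP-3 and BLOC complexes on lysosome-related organelles, differed by 0.55 ± 0.12 between nephritic and prenephritic arrays (adjusted p = 0.0067) and by -0.79 ± 0.14 between remission and nephritic arrays (adjusted p = 0.0015). Vipas39, the partner of Vps33b in CHEVI, differed by 0.34 ± 0.08 between nephritic and prenephritic arrays (adjusted p = 0.0066) and by -0.28 ± 0.09 between remission and nephritic arrays (adjusted p = 0.041). Among 12 genes of the BLOC complexes, 2 fell in nephritic against prenephritic arrays (against 5.32% of all genes). These were Hps4 (-0.37 ± 0.09, adjusted p = 0.0089) and Hps3 (-0.23 ± 0.06, adjusted p = 0.021). None of the 12 was called in remission against nephritic arrays, where 10.0% of all genes fell and 3.27% rose. Of 14 phosphoinositide enzymes, 1 fell in remission against nephritic arrays (7.14%, against 10.0% of all genes). In nephritic against prenephritic arrays 1 rose (7.14%, against 6.74%) and 1 fell (7.14%, against 5.32%), with a median of -0.05. Pik3c2a, a class II phosphoinositide 3-kinase, fell there (-0.45 ± 0.14, adjusted p = 0.047). Vac14, the scaffold of the PIKfyve complex, rose by 0.46 ± 0.12 in nephritic against prenephritic arrays (adjusted p = 0.022) and fell in remission against nephritic arrays (-0.62 ± 0.14, adjusted p = 0.0078).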

How the data were processed

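Expression was measured on 17 Affymetrix arrays of F4/80hi kidney cells, 4 remission, 7 nephritic and 6 prenephritic, grouped by their titles. The authors deposited log2 values made by RMA (background correction, quantile normalization and probe summary), per the submitters' processing notes, with the version unnamed there. Not given in the sources used here were the probe definition and genome build. RMA gives all arrays 1 distribution, so total RNA per cell cannot be read, and it compresses differences of dim genes. The number of arrays limits the precision.

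The table held 16539 probe sets, 1 per gene. After removal of 64 controls and 695 without a symbol in GEO's platform annotation, 15780 genes remained. The test was limma's (limma 3.58.1, R 4.3.3), as 1 model of 3 group means with 14 residual degrees of freedom, two-sided, no filter on level, and checked on simulated data. All 89 members were found by Entrez identifier in RefSeq. Alternatives were dim genes left out, repeated quantile normalization, array medians subtracted, a trended robust prior, array weights, 2-group fits, a replicate block, every probe set, a 1.5-fold minimum, the tubule score and each array left out. The fit leaving out the 3 arrays with the most extreme scores was chosen after seeing the data.

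The members, role, pathway and marker lists were chosen with earlier results of these data known. Named genes were all members called in any comparison, the smallest p of each role with none, their paralogs, and up to 4 called genes of each pathway list. No test was made over a list. Replicate numbers were taken not to pair the arrays.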

Additional observations from a re-analysis of the deposited data

Results flagged for a closer look

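Ap1s1, the sigma-1A subunit of AP-1, was 9.70 in nephritic replicate 4, apart from the other 6 nephritic arrays, of which the next highest was 9.47. The gap was 0.63 of the group's range. In all, 78 combinations of a called member and a group were searched for an array that stands apart, of which chance alone gives about 1 in 20, and 1 was found. Without this array the difference of Ap1s1 between nephritic and prenephritic arrays stayed past the threshold, as in all 17 fits with 1 array left out, where it lay between 0.51 and 0.60.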

How the results depend on the processing

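No difference of a named member changed sign under any of 28 alternatives and left-out arrays. Of 34 such differences, 12 passed in all 17 fits with 1 array left out and 1 under every alternative. The cause of the following shifts was not tested. For members higher in nephritic than prenephritic arrays (10, against 6.74% of all genes), the count was 6 with array medians subtracted (against 5.63%). It was 0 with a 1.5-fold minimum (against 2.75%) and 6 without the 3 arrays of most extreme tubule score (against 6.17%). With 1 array left out it was 5 to 11 (against 5.51% to 6.98%). For members lower in that comparison (1, against 5.32%), it was 0 with medians subtracted (against 3.4%) and 0 with the fold minimum (against 1.88%). It was 3 with the tubule score in the model (against 9.43%) and 0 to 1 with 1 array left out (against 3.61% to 6.39%). For members higher in remission than nephritic arrays (1, against 3.27%), it was 0 in the fit of those 2 groups alone (against 3.01%). It was 0 with the tubule score (against 3.17%) and 0 without the 3 arrays (against 0.304%). With 1 array left out it was 0 to 1 (against 1.15% to 6.22%). For members lower in that comparison (22, against 10.0%), it was 14 with medians subtracted (against 7.97%) and 1 with the fold minimum (against 4.41%). It was 5 with the tubule score (against 5.56%) and 2 without the 3 arrays (against 1.48%). With 1 array left out it was 7 to 30, lowest without remission 2 (against 5.32%) and highest without remission 4 (against 12.3%). For members lower in remission than prenephritic arrays (0, against 0.00634%), it was 1 with array weights (against 1.83%). With 1 array left out it was 0 to 1, highest without prenephritic 6 (against 1.08%).

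Arrays of equal number deviated together unevenly (correlations of -0.261 to 0.797), so the numbers were not taken as pairs. With a replicate block 5 members rose (against 5.99% of all genes) and 0 fell (against 4.78%) in nephritic against prenephritic arrays. In remission against nephritic arrays 26 fell (against 11.6%), and in remission against prenephritic arrays 1, Ap1g2, fell (against 1.55%). The nephritic against prenephritic calls of Ap1g1, Vps36, Vps9d1, Snx4, Snx18 and Snx24 were lost with the block (adjusted p 0.057 to 0.13). So were the remission against nephritic calls of Ap1g1 (adjusted p = 0.06), Snx4 (0.07), Snx33 (0.076) and Vps37b (0.11). Snx31 and Ap3b2 were too dim for their differences to be read.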
